A study of Homo sapiens with 8 samples.

Results

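The nucleoporins and nuclear transport receptors described here are the parts of the nuclear pore and the carriers that move cargo through it. They were chosen by gene symbol: the NUP genes, NDC1 and TPR, the RANBP genes, RAN and RANGAP1, and the KPNA, KPNB1, IPO, TNPO and XPO genes. Of 57 such genes with reads, 54 had a mean of at least 20 reads over the chase libraries, out of 10643 genes that did so and 15380 genes with any read. KPNA5 was the lowest inside the limit with a mean of 70.4 reads, and RANBP17 with 18.4, KPNA7 with 0.571 and NUP210L with 0.143 lay outside it. The rule uses symbols and read counts, with no measure of decay or of change. The members were, however, chosen with earlier results of these data known.

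The libraries came from THP-1, an established human line of acute monocytic leukaemia, grown without any genetic change that the labels name. Cells received 30 µM 4-thiouridine (4sU) for 12 h with fresh medium every 3 h, were washed, and were moved to 3 mM uridine. They were harvested at 0, 20 and 40 min and at 1, 2, 8 and 12 h of this chase, and 1 further library came from cells that never received 4sU. In SLAM-seq, 4sU built into new RNA is alkylated and then read as T-to-C changes, so a labelled read marks RNA made during the pulse. Each of the 8 conditions had 1 library of 3′ ends, and no condition was replicated. P-values below therefore measure only the scatter of 7 chase libraries around a straight line over hours (5 residual degrees of freedom). Separate cultures for the times are not stated in the labels, so that scatter may be technical.

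Nuclear pores are built from stacked rings of scaffold nucleoporins anchored in the nuclear envelope, a channel filled with flexible phenylalanine-glycine (FG) repeats, filaments on the cytoplasmic face and a basket on the nuclear face. Importins and exportins carry cargo through the channel, and the GTPase Ran sets the direction, because importins release their cargo on binding RanGTP in the nucleus whereas exportins bind cargo together with it. Importin alpha proteins are adaptors that join cargo with a classical nuclear localisation signal to importin beta. XPO1, the best known exportin, is a drug target in blood cancers, and NUP98 and NUP214 take part in fusion genes of acute leukaemia.

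The mRNAs of the group end in 3′ UTRs in which 2 short motifs linked to mRNA decay were searched, on the transcript strand only. The first was the Pumilio-type octamer TGTANATA, bound by PUM proteins, and the second the AU-rich pentamer ATTTA. The search covered the last 300 bases of the GENCODE 29 transcript (GRCh38) of the segment counted, in the 48 members whose annotated 3′ UTR reaches that far. The octamer was found in 3 of these 48 (6.25%), against 884 of 8016 genes (11%) with a window of the same length, and the pentamer in 29 of 48 (60.4%) against 3976 of 8016 (49.6%). The sites below are those of all 3 members with the octamer and of the members with the shortest and the longest half-life, RANBP6 and RANBP1. They read 5′ to 3′, with the motif in capitals and up to 10 bases on either side.
NDC1, octamer: tgtgtcatccTGTAAATAttcatgatag
NUP107, octamer: tagagacagcTGTATATAtatacggttt
NUP210, octamer: acaacctggaTGTAAATAggagcctttc
RANBP6, pentamer, first: gagagtagtcATTTAgcagtagatg
RANBP6, pentamer, second: ctgtgtatgtATTTAgcaaatattt
RANBP6, pentamer, last: tttagcaaatATTTAagacctagta
RANBP1, pentamer: ggaaacacttATTTAtagtcatcaa
The second and last RANBP6 sites lie 11 bases apart and their flanks overlap. A match describes letters in this window and is not a shown binding site.

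Gene totals ran from 2916043 reads without 4sU to 11224018 reads at 8 h, and the 54 members held 22007 and 100846 of these. The labelled share of all gene reads was 30.6% at 0 h and 5.53% at 12 h, against 0.0121% without 4sU. Monocytic marker genes summed to between 1030 and 2850 CPM (counts scaled to a common library size) in each library, whereas lymphoid markers summed to at most 7.2, erythroid to at most 1.69 and epithelial to at most 1.68 CPM. The monocytic sum is uneven: CEBPA alone ran from 231 to 2590 CPM, and MPO from only 0.964 to 2.78 CPM. CD3E, CD2 and HBB were not among the genes matched by name. The conversion threshold behind a labelled read was not given in the sources used here. Shares are therefore compared between libraries and not read as the fraction of new RNA. No molecular identifiers were used, and intervals on shares cover counting error only.

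How far each mRNA was labelled by the end of the pulse was read from the 0 h library. The members together had 42.6% of their reads labelled, and the median member had 48.7%, against 44.5% for the median of all 9402 genes tested for decay. The highest share belonged to KPNA5, an importin alpha, with 79% (95% exact binomial interval 66.8 to 88.3), followed by RANBP6, a close relative of importin 5, with 71.1% (65.5 to 76.2), and NUP153, an FG nucleoporin of the basket, with 70% (65.8 to 74.1). The lowest belonged to NUP210, the transmembrane nucleoporin of the ring in the envelope lumen, with 10% (8.28 to 11.9). IPO4 and IPO5, importins known to carry histones and ribosomal proteins, followed with 18.2% (14.4 to 22.5) and 18.5% (14.8 to 22.6). Without 4sU a single member read was labelled, in TNPO2, of 22007 (0.00454%).

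Whether and how fast the label was lost was the question the chase asks. The labelled share fell in all 54 members by edgeR's quasi-likelihood test at an adjusted p under 0.05, where 95.3% of all 9402 genes tested were called, so the call by itself does not set the group apart. Over the members together the share was 42.6, 41.9, 42.2, 41.2, 36.1, 11.1 and 3.83% at the 7 successive times from 0 to 12 h. Thus the share was nearly level for the first hour and most of the loss came after it. In 49 members the 2 h share lay below each of the first 3 shares, the exceptions being IPO4, IPO5, IPO13, RAN and RANBP1. At 8 h every member lay below all its earlier shares, and at 12 h below its 8 h share. The same was not counted over all genes, so these counts do not set the group apart. The share of all gene reads was itself 30.6, 27.1, 10.8 and 5.53% at 0, 2, 8 and 12 h.

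**Figure D1:**
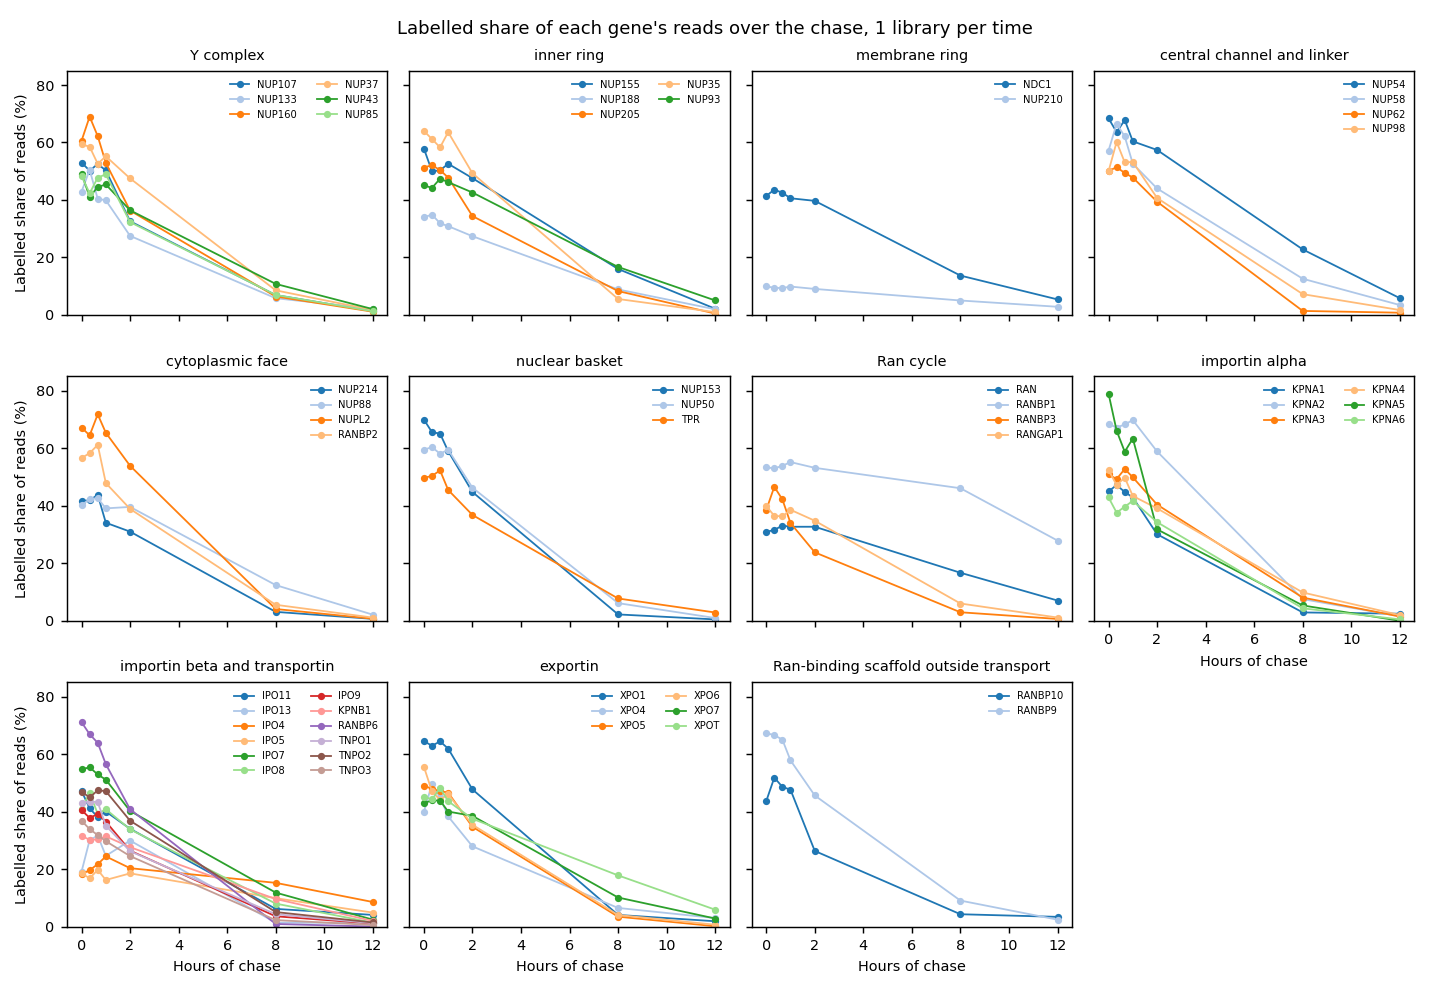
Labelled share of a gene's reads in percent (y axis) against hours of chase (x axis), 1 line per member and 1 panel per role, with 1 library at each time. Most lines stay between 30% and 80% for the first hour and end near 0, while RANBP1 in the Ran panel still holds 27.9% at 12 h and NUP210 starts at 10%.

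Half-lives were fitted to the labelled share, and so count dilution by new unlabelled RNA as decay. The median over the 54 members was 2.75 h (quartiles 2.36 and 3.45 h), next to 2.72 h (quartiles 2.16 and 3.99 h) over the 8831 genes with a resolved half-life. The group was bunched around that middle: 43 of 54 members (79.6%) had a half-life of 2 to 4 h, against 57.4% of all genes, and 2 members (3.7%) lay under 2 h, against 17.7%. A further 7 members lay between 4 and 8 h (13%, against 18% of all genes), and RANBP1 and IPO4 above 8 h (3.7%, against 6.83%). The 95% interval lay wholly below the median of all genes in 9 members and wholly above it in 15. These counts are upper limits, because the intervals are too narrow for 5 residual degrees of freedom. The same was not counted over all genes, so they do not set the group apart. Nucleoporins and transport receptors, 24 genes each, had the same median of 2.73 h. Members with and without the ATTTA pentamer both had a median of 2.75 h. NDC1, NUP107 and NUP210, the only 3 with the octamer, had a median of 4.42 h against 2.75 h for the other 45, while over all genes those with the octamer had 2.32 h and those without it 2.7 h.

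**Figure D2:**
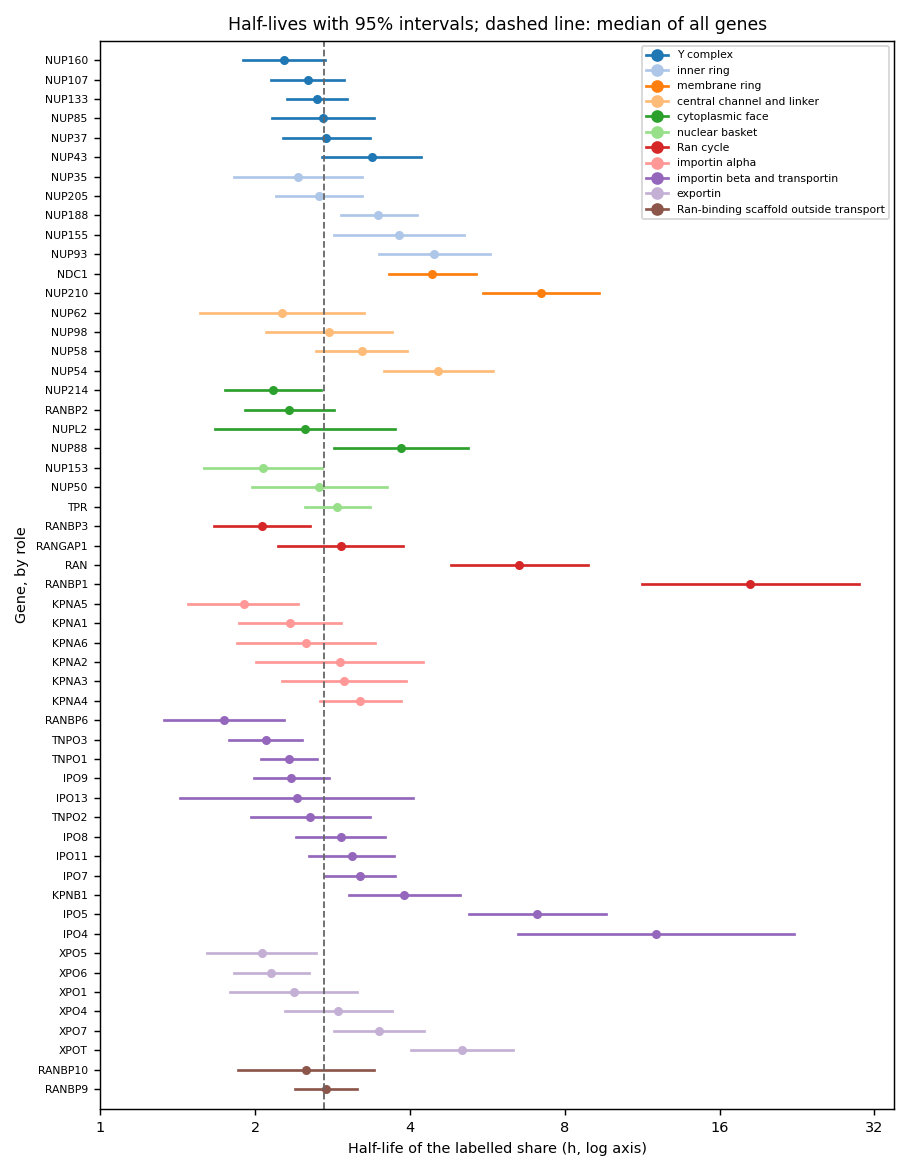
Half-life of the labelled share in hours on a log axis (x axis) for each of the 54 members (y axis), coloured by role, with bars for the 95% interval of the fit to 7 chase libraries and a dashed line at the median of all genes, 2.72 h. Most points sit near the line, and RANBP1 (18.37 h), IPO4 (12.03 h), NUP210 (7.20 h), IPO5 (7.07 h) and RAN (6.52 h) stand to its right.

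The Ran cycle had the widest spread of half-lives among the roles, with a median of 4.72 h over 4 genes. RANBP1, which helps RANGAP1 to stimulate GTP hydrolysis by Ran in the cytoplasm, kept its label longest of all members. Its most covered 3′ UTR segment starts at hg19 position 20114576 on the plus strand of chromosome 22. The RANBP1 share was 53.4, 53, 53.9, 55.2, 53.2, 46.1 and 27.9% from 0 to 12 h, level through 2 h. At 8 h it was still at 86.2% of the share pooled over the 0, 20 and 40 min libraries. The fitted half-life was 18.37 ± 4.55 h (SE; 95% interval 11.31 to 29.84 h; adjusted p = 0.000102 for the decline, edgeR). That value depends on single libraries and on the denominator: it was 35.29 h without the 12 h library, 13.12 h without the 8 h library and 8.66 h when labelled reads were taken as CPM rather than as a share of RANBP1 reads.

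RAN itself, the GTPase, was also slow. Its share was 30.9, 31.6, 33.1, 32.7 and 32.7% from 0 to 2 h, then 16.7% at 8 h and 7.04% at 12 h, which gives 6.52 ± 1.02 h. GENCODE 29 names 9 RAN pseudogenes, and the handling of reads shared with such copies was not given in the sources used here. RANGAP1, the GTPase-activating protein of Ran, had 2.93 ± 0.42 h. RANBP3, a cofactor of XPO1, was the fast member of the cycle: its share was 38.5, 46.6, 42.2, 34, 23.8, 2.95 and 0.628%, a half-life of 2.06 ± 0.23 h. Its 95% interval (1.66 to 2.56 h) does not meet that of RAN (4.80 to 8.86 h).

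Among the importin beta family and transportins, 12 genes with a median of 2.75 h, relatives differed widely. RANBP6 had the shortest half-life of all members at 1.74 ± 0.23 h. Its segment starts at hg19 position 6011043 on the minus strand of chromosome 9. The share of RANBP6 was 71.1, 66.9, 63.9, 56.5, 40.8 and 0.887% from 0 to 8 h, and at 12 h 0 of 330 reads were labelled, which allows a share of up to 0.909%. IPO5, its close relative, started at 18.5% and was at 16.8, 19.7, 16.2 and 18.5% up to 2 h, 9.86% at 8 h and 4.85% at 12 h. The half-life of IPO5 was 7.07 ± 1.11 h, and the interval of 5.20 to 9.61 h lies wholly above the RANBP6 interval of 1.33 to 2.27 h.

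IPO4, an importin of histones, had shares of 18.2, 19.6, 21.7, 24.4, 20.3, 15.2 and 8.53%, highest at 1 h. Its half-life of 12.03 ± 3.79 h is the least secure of the group. Without the 12 h library the decline of IPO4 was no longer called (adjusted p = 0.18, against 0.00362 with it, edgeR) and the fitted half-life was 19.97 h. It was 20.7 h with the amplitude fixed at the 0 h share and 6.73 h by labelled CPM. KPNB1, importin beta itself and the member with the most reads, had shares of 31.5, 30.2, 30.3, 31.4, 27.6, 9.58 and 1.95% and a half-life of 3.90 ± 0.49 h. Its points scattered about the fitted curve far beyond counting error (dispersion 96.2), as did those of 13 other members with a dispersion over 10, and the SEs are widened for it. TNPO1, the transportin of RNA-binding proteins such as hnRNP A1, had 2.33 ± 0.15 h, and TNPO3, which imports splicing factors, 2.10 ± 0.17 h. The other members of this family, IPO7, IPO8, IPO9, IPO11, IPO13 and TNPO2, lay between 2.35 and 3.19 h.

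The 6 importin alpha adaptors lay between 1.90 and 3.20 h, the narrowest range of a receptor family here. KPNA5 was the fastest, going from 79% at 0 h to 31.8% at 2 h and 5.32% at 8 h, but it had only 53 to 94 reads per chase library. Its half-life was 1.90 ± 0.24 h, and 0 of 53 reads at 12 h still allow a share of up to 5.66%. KPNA4 was the slowest at 3.20 ± 0.30 h, and its interval of 2.67 to 3.84 h lies above that of KPNA5 (1.48 to 2.42 h). That gap is small, and it is not secure because the intervals are too narrow for 5 residual degrees of freedom. KPNA2, an adaptor known for high expression in proliferating cells, had shares of 68.5, 67.2, 68.3, 69.8, 58.9, 7.52 and 1.56% and a half-life of 2.92 ± 0.56 h.

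Exportins had a median of 2.64 h over 6 genes. XPOT, the exportin of tRNA, was the slowest with shares of 45.2, 44.2, 48.2, 43.6, 37.5, 17.8 and 5.87% and a half-life of 5.05 ± 0.58 h. XPO5, which exports pre-microRNAs, was the fastest with shares of 49, 47.9, 47.1, 46.6, 34.7, 3.43 and 0.106% and 2.06 ± 0.26 h. Hence these carriers of small RNAs had intervals apart, 4.02 to 6.33 h for XPOT and 1.61 to 2.63 h for XPO5. XPO1, the main exporter of proteins with a leucine-rich export signal, had shares of 64.5, 62.9, 64.4, 61.9, 47.7, 4.04 and 1.84% and 2.38 ± 0.35 h. XPO6, the exportin of actin, had 2.15 ± 0.18 h, XPO4 2.90 ± 0.35 h and XPO7 3.48 ± 0.36 h.

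The slowest nucleoporin sat in the membrane ring. NUP210 lost its label with a half-life of 7.20 ± 0.96 h, from 10, 9.42, 9.36, 9.88 and 9.06% over the first 2 h to 5.03% at 8 h and 2.85% at 12 h. Its segment starts at hg19 position 13357737 on the minus strand of chromosome 3. NDC1, the other transmembrane nucleoporin among the members, had 41.4, 43.6, 42.5, 40.6, 39.7, 13.7 and 5.41% and a half-life of 4.42 ± 0.44 h. Both intervals, 5.55 to 9.34 h and 3.64 to 5.37 h, lie above the median of all genes. POM121, a transmembrane nucleoporin outside the symbol rule, had 2.48 ± 0.29 h, and its interval of 1.97 to 3.12 h holds that median.

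Within the inner ring, whose 5 genes had a median of 3.47 h, NUP93, the anchor that holds the ring and the channel trimer, was the slowest at 4.45 ± 0.56 h, with shares of 45.1, 44.2, 47.4, 46.2, 42.6, 16.7 and 5.05%. NUP35 was the fastest at 2.42 ± 0.35 h, and NUP205, NUP188 and NUP155 lay at 2.66, 3.47 and 3.81 h. The 6 members of the Y complex, the repeating unit of the outer rings, were more even, between 2.27 and 3.37 h. This holds for the members only. Subunits outside the symbol rule had longer fitted half-lives, SEH1L 4.38 ± 0.97 h and SEC13 6.99 ± 0.83 h. AHCTF1, which recruits the complex to chromatin, had a shorter one, 1.78 ± 0.09 h. Among the members NUP160 was lowest (2.27 ± 0.21 h) and NUP43 highest (3.37 ± 0.38 h), and their intervals, 1.89 to 2.73 h and 2.70 to 4.21 h, just meet. NUP133 had 2.64 ± 0.18 h by share and 4.59 h by labelled CPM, the only Y complex member to move by over 1.5 times.

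In the channel, the fitted half-lives of NUP62 and NUP54, which assemble into a trimer together with NUP58, lay apart. NUP62 went from 50.1% at 0 h to 39.4% at 2 h and only 1.4% at 8 h, with 0.787% at 12 h and a half-life of 2.25 ± 0.43 h. For NUP54 the share was 68.4% at 0 h, 57.4% at 2 h and 22.8% at 8 h, with 5.84% at 12 h and a half-life of 4.54 ± 0.56 h. NUP58 lay between them at 3.22 ± 0.34 h. The intervals ran from 1.56 to 3.26 h for NUP62 and from 3.56 to 5.79 h for NUP54. The gap is small and the intervals are too narrow for 5 residual degrees of freedom, so this separation is not secure.

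On the cytoplasmic face the fitted half-lives of the partners NUP214 and NUP88 also lay apart, at 2.17 ± 0.24 h and 3.84 ± 0.59 h. Their intervals, 1.75 to 2.69 h and 2.84 to 5.19 h, leave a small gap that is likewise not secure. The NUP214 share was 41.6% at 0 h, 31% at 2 h and 3.09% at 8 h, against 40.1, 39.6 and 12.4% for NUP88, so that similar starting shares were followed by different losses. RANBP2, the large filament protein that binds Ran and SUMO-modified RANGAP1, had 2.33 ± 0.24 h, and NUPL2 2.50 ± 0.51 h. In the basket, NUP153 went from 70% at 0 h to 44.8% at 2 h and 2.2% at 8 h, a half-life of 2.07 ± 0.28 h. TPR, which forms the basket's filaments, had 2.89 ± 0.21 h and NUP50, a cofactor of importin alpha release, 2.66 ± 0.41 h. RANBP9 and RANBP10, scaffold proteins of a ubiquitin ligase that share only the name with transport factors, had 2.75 ± 0.19 h and 2.51 ± 0.39 h.

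Some genes have 3′ ends far apart, and label can be read at each. Ends at least 5 kb from the most covered segment and with a mean of at least 20 reads were found in NUP98, NUP58 and NUP160, a choice made after the counts were seen. NUP98 encodes both an FG nucleoporin and, from longer transcripts, the scaffold nucleoporin NUP96. Its most covered segment starts at hg19 position 3696241 on the minus strand of chromosome 11, with shares of 50, 60.2, 53.1, 53.2, 40.7, 7.24 and 1.71% and a half-life of 2.78 ± 0.40 h. The separate end, 36542 bases away at 3732783, had 65.5, 69.5, 77.3, 68.8, 69.7, 7.5 and 0.855% and 3.42 ± 1.07 h. At that end the share was still 69.7% at 2 h, where the other end was at 40.7%, whereas both ends were below 8% at 8 h. In NUP58 the ends, 8553 bases apart, had 3.22 ± 0.34 h and 2.67 ± 0.33 h. For NUP160 they had 2.27 ± 0.21 h and 7.74 ± 4.04 h, the latter from a mean of only 41.4 reads, under the 50 required for the decay test, so that it does not count as resolved. The SEs leave the half-lives of the NUP98 and NUP58 pairs unseparated, and the NUP160 pair is not judged because its separate end is not resolved.

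**Figure D3:**
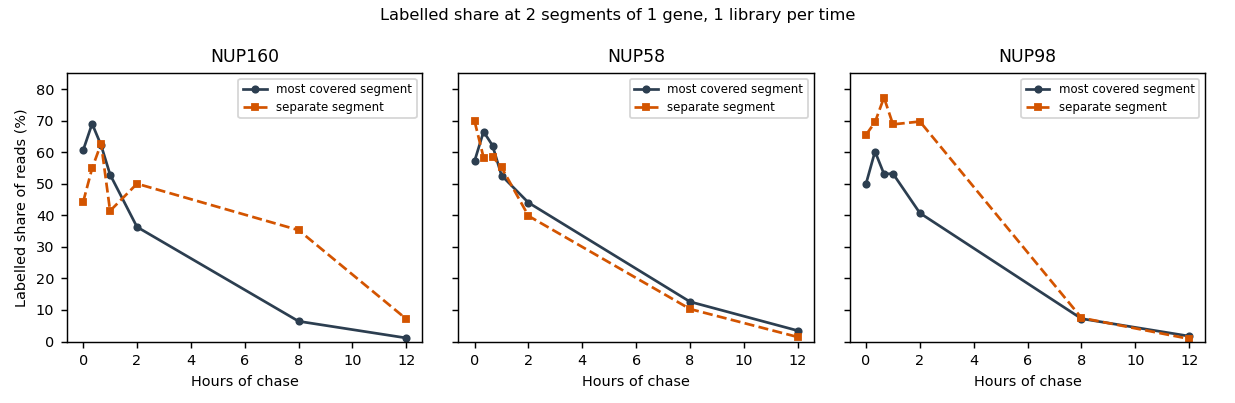
Labelled share in percent (y axis) against hours of chase (x axis) at the most covered segment (solid) and a separate segment (dashed) of NUP160, NUP58 and NUP98, 1 library per time. The NUP98 lines lie apart at 2 h (40.7% and 69.7%) and together at 8 h (7.24% and 7.5%), and the separate NUP160 segment rests on few reads.

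Whether the total level of these mRNAs changed during the chase was asked next, since a changing level moves the labelled share. Levels are CPM scaled by TMM factors, and log2 changes are the fitted line over 12 h. By edgeR's quasi-likelihood test the level rose in 27 of the 54 members, where 27.4% of all 10643 genes rose, and fell in 12, where 23.9% fell. The remaining 15 members were not called. The median change of the members was 0.26 on the log2 scale, against 0.02 for all genes. In bulk RNA a smaller number of expressing cells and less RNA per cell cannot be told apart. Scaling by library totals alone moved the median of all genes to 0.18 and the share of rises among all calls from 53.4 to 68%, with 29 members then rising and 9 falling. Under that scaling the falls of NUP155, NUP210 and NUPL2 were no longer called.

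**Figure D4:**
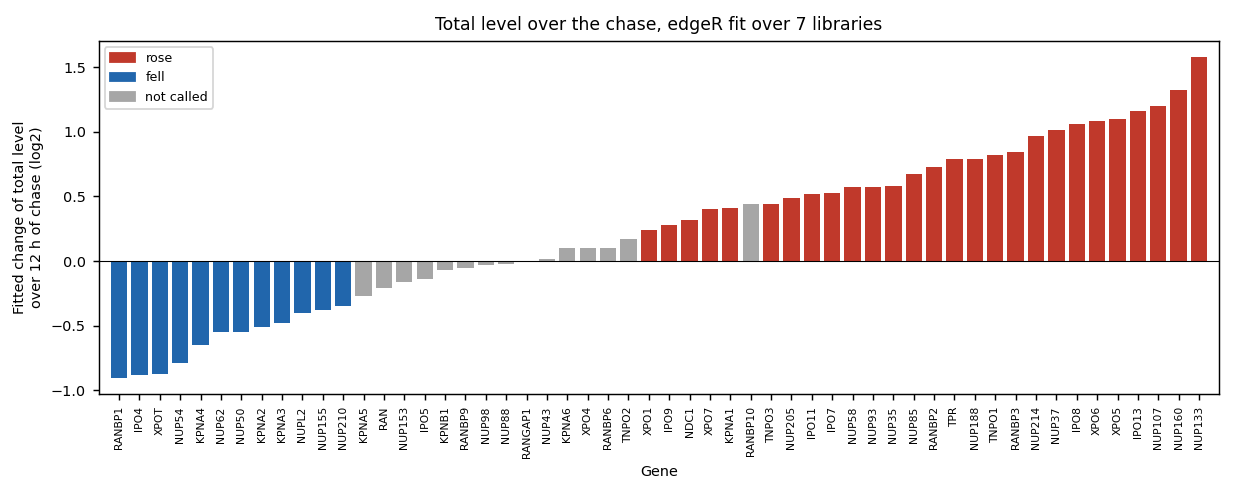
Fitted log2 change of the total level over 12 h of chase (y axis) for each member (x axis), coloured by call in the edgeR fit over 7 libraries. Bars run from -0.90 for RANBP1 to 1.58 for NUP133, with 27 rises, 12 falls and 15 members not called.

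The Y complex held the largest rises among the members. Of its 6 members 5 rose, where 27.4% of all genes rose, and the median change over the 6 was 1.11 on the log2 scale. NUP133, at the stem's tip, was at 31.3, 32.8, 41.8, 36.4, 40.2, 81.9 and 88.9 scaled CPM from 0 to 12 h, so that the 8 and 12 h libraries stood apart from the first 5. Its fitted change was 1.58 (2.98-fold, adjusted p = 1.33e-05, edgeR). NUP160 was at 17, 18.3, 16, 19.2, 23.5, 35.2 and 39.9 scaled CPM, a change of 1.32 (adjusted p = 6.25e-05, edgeR). For NUP107 the values were 29.6, 24, 28, 21.8, 29.2, 50.2 and 52.4, a change of 1.20 (adjusted p = 0.000166, edgeR). At their most covered segments all 3 genes were thus higher in both late libraries than in any earlier one. NUP37 rose by 1.01 and NUP85 by 0.67, while NUP43 was flat, between 38.8 and 41.3 scaled CPM, with a change of 0.02. Outside the symbol rule, the subunits SEC13 (0.11) and SEH1L (-0.01) were not called, and AHCTF1 rose by 1.23.

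Other scaffold genes rose as well. In the inner ring NUP188 (0.79), NUP35 (0.58), NUP93 (0.57) and NUP205 (0.49) rose, and NUP155 fell by 0.38. The NUP93 rise was no longer called without the 12 h library (0.33, adjusted p = 0.0939, edgeR), in which its level was 187 scaled CPM against 138 at 8 h and 111 to 131 before. In the membrane ring NDC1 rose by 0.32 and NUP210 fell by 0.35. On the faces of the pore NUP214 (0.97), TPR (0.79) and RANBP2 (0.73) rose, NUP50 fell by 0.55 and NUPL2 by 0.40, and NUP88 (-0.02) and NUP153 (-0.16) were not called. The NUPL2 fall was lost without the 12 h library (adjusted p = 0.199, edgeR). Channel genes went different ways: NUP54 fell by 0.79 and NUP62 by 0.55, NUP58 rose by 0.57, and NUP98 (-0.03) was not called. NUP54 was at 53.1, 62.4, 58.9, 52.1, 56.7, 40 and 32.7 scaled CPM, below every earlier value at 8 and 12 h. When all segments of a gene were summed, NUP98 fell (-0.33, adjusted p = 0.0442, edgeR). At the separate NUP58 end the reads went from 96 at 0 h to 87 at 8 h and 70 at 12 h, a change that was not tested.

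In the Ran cycle, RANBP1 had the largest fall of all members, 0.90 on the log2 scale (adjusted p = 2.02e-05, edgeR). Its level was 752, 748, 705, 622, 716, 480 and 385 scaled CPM, lowest in the late libraries. RAN, at 1280 scaled CPM at 0 h, 1030 at 8 h and 1170 at 12 h, was not called (-0.21, adjusted p = 0.0567, edgeR). Without the 12 h library RAN fell (-0.47, adjusted p = 0.0015, edgeR), as it did by DESeq2 (adjusted p = 0.0362). RANBP3 rose by 0.84, from 34.3 scaled CPM at 0 h to 54.7 at 8 h and 53.8 at 12 h. RANGAP1 (-0.01) was not called.

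Receptors were mixed. Of 6 importin alpha genes 3 fell, KPNA4 by 0.65, KPNA2 by 0.51 and KPNA3 by 0.48, where 23.9% of all genes fell. KPNA1 rose by 0.41, where 27.4% of all genes rose, and KPNA5 (-0.27) and KPNA6 (0.10) were not called. KPNA4 was at 220, 209, 209, 212, 221, 169 and 131 scaled CPM, level until 2 h and lower afterwards. The KPNA2 fall rested on the 12 h library, where the level was 195 scaled CPM against 263 at 8 h and 282 to 310 earlier, and it was not called without it (-0.24, adjusted p = 0.0631, edgeR). Of 12 importin beta and transportin genes 7 rose, where 27.4% of all genes rose, led by IPO13 (1.16), IPO8 (1.06) and TNPO1 (0.82). IPO4 alone fell, by 0.88, where 23.9% of all genes fell, and 4 were not called. TNPO1 was at 290, 258, 302, 333, 360, 446 and 488 scaled CPM. IPO4 went the other way, from 44.2 at 0 h to 22.8 at 8 h and 23.7 at 12 h. IPO9 rose by 0.28, a call lost without the 12 h library (0.25, adjusted p = 0.0623, edgeR). IPO5 (-0.14) was not called, but fell without that library (-0.60, adjusted p = 0.0214, edgeR). TNPO2 (0.17) was not called with it and rose without it (0.41, adjusted p = 0.0303, edgeR), and the same holds for RANBP10 (0.44, then 1.02 with adjusted p = 0.013, edgeR).

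Of 6 exportins XPOT fell and 4 genes rose, where 23.9% of all genes fell and 27.4% rose. XPO4 (0.10) was not called. XPOT was at 103, 98.2, 103, 94.9, 100, 75.1 and 51.7 scaled CPM, a fall of 0.87 (adjusted p = 9.96e-05, edgeR). XPO5 was at 56, 54.1, 49.1, 53.7 and 46.3 scaled CPM up to 2 h, then at 82.4 and 106, a rise of 1.10 (adjusted p = 3.3e-05, edgeR). The late values are the highest of XPO5 and the lowest of XPOT. XPO6 rose by 1.08 and XPO7 by 0.40. The small rise of XPO1 (0.24, adjusted p = 0.0362, edgeR) was not called when the 40 min, 1 h, 2 h or 8 h library was left out. Adjusted p-values were then 0.0667 to 0.0767 (edgeR). The rise was also not called by DESeq2 (adjusted p = 0.0701) or with all segments summed (adjusted p = 0.149, edgeR).

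Total levels at the end of the pulse were set against those in cells that never received 4sU, 1 library against 1 with no test. The median ratio of CPM was 1 for the members and 1.01 for all genes. At 0 h, 6 of 54 members were at least 2-fold higher than without 4sU, where 20.3% of 10523 genes were, and 10 were at least 2-fold lower, where 17.5% were. The other 38 members were within 2-fold. The higher members were RANBP1 (2.9-fold), NUP50 (2.54-fold), IPO9 (2.43-fold), NUP88 (2.37-fold), KPNA3 (2.34-fold) and NUP43 (2.17-fold). Among the lower ones, XPO5 was 3.48-fold lower, NUP133 3.46-fold, TPR 3.04-fold and NUP93 2.88-fold, followed by XPO4, NUP85, NDC1, NUP160, NUP210 and TNPO1 at 2.02 to 2.16-fold. This comparison and the trend over the chase both use the 0 h library, so their values are only set side by side. NUP133 had 108 scaled CPM without 4sU, 31.3 at 0 h and 88.9 at 12 h. XPO5 had 194, 56 and 106, TPR 136, 44.8 and 82.2, and NUP93 369, 129 and 187. RANBP1 had 259, 752 and 385, and NUP50 99.5, 254 and 166. In these 6 genes the 12 h value lay between that without 4sU and that at 0 h, an order that taking genes for an extreme 0 h value itself favours. IPO9 did not show it, with 104, 253 and 297. NUP43 and NUP88 had 18.2 and 19.6 scaled CPM without 4sU, 39.7 and 46.6 at 0 h, and 38.8 and 47.9 at 12 h. NUP210 had 265, 129 and 98.7. For NUP43 and NUP88 the 12 h level was therefore close to that at 0 h, and for NUP210 it was further from the level without 4sU.

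**Figure D5:**
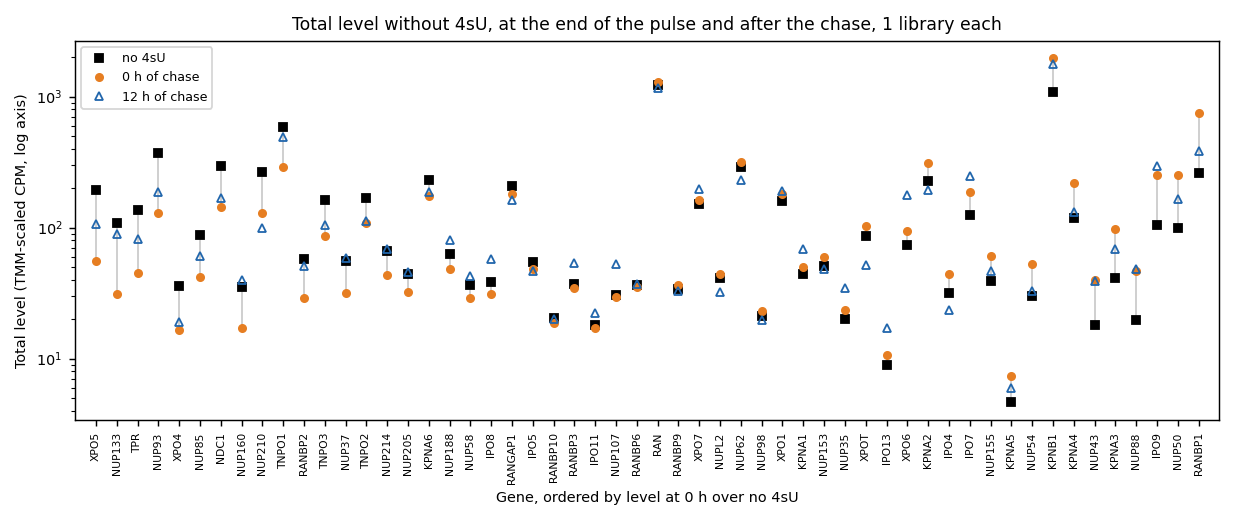
Total level in TMM-scaled CPM on a log axis (y axis) for each member (x axis, ordered by the ratio of 0 h to no 4sU), 1 library each without 4sU (squares), at 0 h (circles) and at 12 h of chase (triangles). At the left NUP133 goes from 108 without 4sU to 31.3 at 0 h and 88.9 at 12 h, and at the right RANBP1 from 259 to 752 and 385.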

How the data were processed

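THP-1 libraries (QuantSeq 3′ FWD, 8 in all, 1 per condition) were analysed from the authors' deposited raw count tables, which give total and converted (labelled) reads for 64545 3′ UTR segments. Tools listed in the submitters' processing notes are Trim Galore 0.6.5 and bcl2fastq 2.17.1.14, and the listed builds are hg19 and dm3. Aligner, counter and conversion threshold were not given in the sources used here, and spike-in reads were left out. Transcripts were named with GENCODE 29 (84.9% matched; 5.65% of counts unnamed), and each gene was represented by its segment with the most reads.

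Decline was tested in edgeR 4.0.16 (R 4.3.3): labelled counts against hours, offset by the gene's own total, for genes with a mean total of at least 50 and 20 labelled reads, adjusted by Benjamini-Hochberg over all genes at 0.05. Half-lives come from a binomial fit of background plus exponential, the background being the share without 4sU shrunk with 100 prior reads. They counted as resolved with a called decline, an excess of at least 10 reads at 0 h, an SE of the log rate of at most 0.5 and a value between 0.25 and 24 h. SEs were widened for scatter about the curve. Totals of genes with a mean of at least 20 reads were fitted in the same way, scaled by TMM. The fits were tested on simulated data in which label decayed exponentially or not at all, with counting error only. That setting lacks the wider scatter of labelled shares and the nearly level first hour of these data. Zero labelled reads were bounded by 3 counts of the total.

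Members, role groups and lists were chosen with earlier results of these data known. Named were 16 members by symbol, the shortest and longest half-life of each role group with an SE of the log rate of at most 0.25, and the 3 largest called rises and falls of total level, with other members named to account for their role groups. DESeq2 1.42.0, library-total scaling, other filters, segments summed, labelled CPM, time windows and each library left out were the alternatives.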

Additional observations from a re-analysis of the deposited data

How the results depend on the processing

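No paired analysis was possible because each condition has 1 library and the labels give no replicate numbers. Leaving out each library in turn gave 53 to 54 members with a called decline, a median half-life of 2.62 to 3.00 h, and 38 to 39 calls of total level (26 to 27 rises). With the 0 to 2 h libraries only, 31 members had a called decline, a count not made over all genes. The median half-life was 3.49 h over the 29 members then resolved, against 2.99 h over the 2795 genes then resolved. In this window the half-life was over 1.5 times longer in 36 members. The cause was not tested. Taken as labelled CPM, the median half-life of the members was 3.15 h, against 2.95 h over all genes then resolved. For total levels, the 0 to 2 h window gave 2 calls, the 2 rises of RANBP2 and TNPO1, and 0 falls in edgeR. In that window 4.12% of all genes rose and 1.1% fell. At an unadjusted p under 0.05 it gave 7 rises and 1 fall. DESeq2 over all 7 chase libraries gave 13 falls, where 24.2% of all genes fell. The 1 to 12 h window gave 25 calls, 17 of them rises, where 17.8% of all genes rose and 16.3% fell. Of 39 called members, 14 turned direction or were at 0.00 in the 0 to 2 h window, where log2 changes over 12 h are extrapolated: KPNA4 0.45, NDC1 -0.16, NUP35 -0.26, NUP54 0.10, XPO1 -0.71, XPO5 -1.25, XPOT 0.00, and also IPO7, IPO11, IPO13, NUP50, NUP188, XPO6 and XPO7, again with the cause not tested. The other results given for the whole group kept within 1.5 times of their count, or within their error, under the other alternatives run. Depth limits KPNA5, IPO13 and the separate ends most.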

Other observations

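Genes of the same pathway outside the symbol rule were read from 3 lists of 29 genes, of which 27 had enough reads (POM121C and DDX39B are not analysed here). The labelled share fell in all 27, where 95.3% of all genes tested were called, and the median half-life was 3.3 h. Total level rose in 12 and fell in 4, where 27.4% of all genes tested rose and 23.9% fell.

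Structural nucleoporins with other names (7 genes) had a median of 3.23 h. AHCTF1, which recruits the Y complex to chromatin as pores form after mitosis, was the fastest at 1.78 ± 0.09 h, with shares of 69.8% at 0 h, 35.2% at 2 h and 3.1% at 8 h. SEC13, a Y complex subunit that also belongs to the COPII coat of secretory vesicles, was the slowest at 6.99 ± 0.83 h, with 26.2, 27.2 and 13.4%. AHCTF1 rose by 1.23 on the log2 scale over the chase (adjusted p = 0.000405, edgeR), and 5 of these 7 genes rose, against the same 27.4% of all genes.

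Receptors and Ran factors (8 genes) had a median of 2.68 h, from NXT1, the small partner of the mRNA exporter NXF1, at 1.89 ± 0.21 h to HIKESHI, the carrier of HSP70, at 6.03 ± 0.96 h. NUTF2, which brings RanGDP back into the nucleus, was fitted at 16.96 ± 4.35 h, above the limit on the SE set for naming extremes and named after its value was seen. Its share was 21.6, 21.9, 18.6 and 11% at 0, 2, 8 and 12 h, and its total level fell by 0.48 (adjusted p = 0.000228, edgeR). Over these 27 genes and the 54 members together, RANBP1 and NUTF2 had the longest fitted half-lives.

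Genes of mRNA export (12 genes) had a median of 4.79 h, from MCM3AP at 2.14 ± 0.33 h to ALYREF, the mRNA export adaptor, at 12.20 ± 3.45 h. ALYREF lies above the limit on the SE set for naming extremes, and the longest within it was THOC7 at 11.20 ± 2.39 h. Of these 12 genes 5 rose in total level and 3 fell, against 27.4% and 23.9% of all genes.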
